A study of Trachinotus blochii with 12 samples.

Results

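Among 18490 gene models measured in Trachinotus blochii, the golden pompano farmed as a marine fish, 98 had lower values in the liver and higher values in the brain of fish that withstood severe hypoxia than of fish that did not. They were picked by their values. The difference of mean log2(value + 1), tolerant minus intolerant, had to be at most -0.5 in liver and at least 0.25 in brain, and in each tissue all values of one group had to lie on the same side of all values of the other. Each tissue also had to hold 3 or more libraries with a value of 1 or more, and 8464 gene models met this filter. Means had to stay below 400 in liver and 200 in brain, which left out 1 further gene model with a liver mean of 1596. The 98 members were 1.16% of the gene models that passed the filter in both tissues. Since these liver and brain contrasts chose the members, their sizes are described below and are not tested.

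Each library was mRNA from liver or brain of fish aged 2 months, held without food in water whose dissolved oxygen was 0.9 mg/L, give or take 0.1 mg/L. The Intol group were dying fish, floating and off balance within 1 h of hypoxia, and the Tol group were fish still behaving normally after 24 h. The groups thus also differed by 23 h of hypoxia and fasting, which cannot be told apart from tolerance, and fish at normal oxygen were not among the libraries. Oxygen was lowered over 2 h, in 3 tanks that began with 80 fish each. For each status 14 fish per tank were taken, 42 per status. Each status had 3 libraries of each tissue, 12 in all. The labels name no tank or fish for a library, so the spread between libraries may be technical in part.

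The liver stores glycogen and fat, releases glucose to the rest of the body and makes most plasma proteins, and under low oxygen vertebrates generally shift it towards glycogen breakdown and anaerobic ATP supply. The brain holds little fuel of its own and depends on a steady supply of oxygen and glucose. Many genes respond to hypoxia through HIF transcription factors, whose targets differ between tissues. The files do not pair gene models with gene names, so 0 members could be assigned a function and neither pathway nor cell type markers could be read. The tissue labels were likewise not checked against marker genes. In whole tissue, fewer cells of a type and less RNA per cell cannot be told apart.

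Values were read as FPKM, which scale reads by gene length and library size. Their sums ran from 581739 to 622240 in liver and from 360680 to 373167 in brain, and sequencing depth is unknown. Between 8306 and 8616 gene models reached a value of 1 in Tol livers and between 8996 and 9319 in Intol livers, while brain libraries held 13899 to 14226. The median difference of all 9109 gene models tested in liver was -0.20, so the typical liver gene model also had a lower value in Tol. In brain the median of 14146 gene models was 0.04. By limma with Benjamini-Hochberg adjustment, 29.6% of the gene models tested were lower in Tol liver at an adjusted p under 0.05, and 0.00707%, or 1 gene model, higher in Tol brain, where 10.9% had an unadjusted p under 0.05 in that direction.

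The 98 members had low to moderate levels. Tol liver means ran from 0.277 to 286 with a median of 2.01, and Intol liver means from 1.17 to 440 with a median of 4.31. In brain the Tol means ran from 1.31 to 79.6 with a median of 7.97, and the Intol means from 0.840 to 66.3 with a median of 6.01. No member was listed at 0 in any library, and the smallest value was 0.08. A mean of at least 20 was reached by 5 members in liver and 9 in brain. In liver 25 members were below 1 in all 3 Tol libraries and passed the filter through their Intol values, so a lower Tol level was built into their selection. In brain 1 member was below 1 in all 3 Intol libraries.

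The rule asked for a larger difference in liver than in brain, so the order of the 2 sizes is partly built in. In liver the difference ran from -2.53 to -0.51 with a median of -0.82, and 28 members were lower by at least 1. The ratio of the Intol to the Tol liver mean had a median of 2.34 and was at least 2 for 65 members. In brain the difference ran from 0.25 to 0.76 with a median of 0.33, and only 9 members reached 0.5. The ratio of the Tol to the Intol brain mean had a median of 1.31, and 2 members reached 2. The pseudocount of 1 makes differences of low gene models smaller than their ratios.

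**Figure D1:**
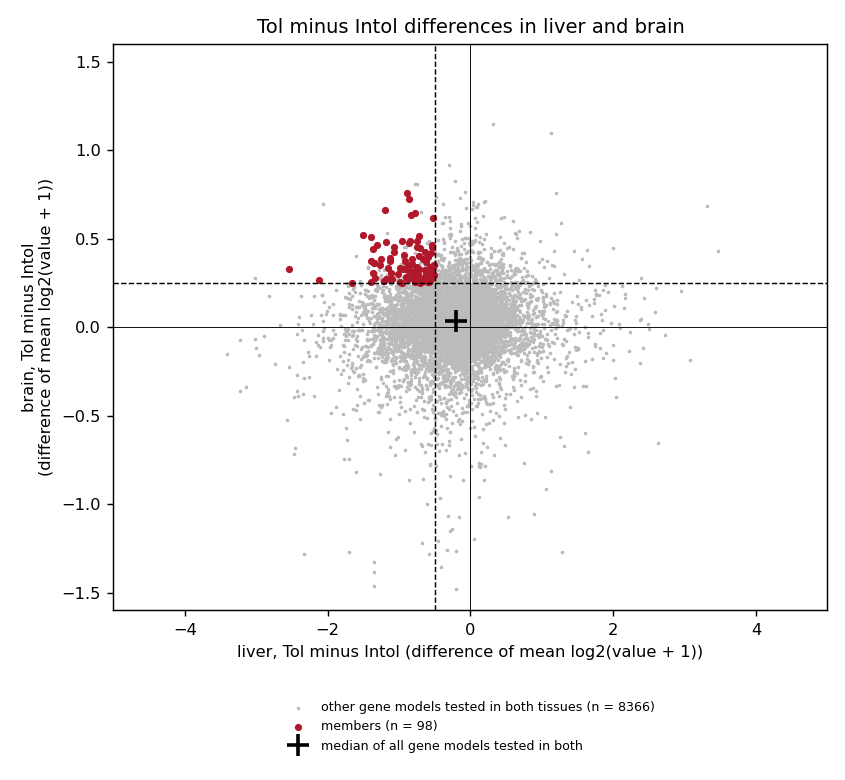
Tol minus Intol difference of mean log2(value + 1) in liver (horizontal) and brain (vertical) for gene models that passed the filter in both tissues, with the 98 members in red, the rule's limits dashed and the median of all gene models as a cross. The members fill the corner left of -0.5 and above 0.25, most of them close to the brain limit, and 2 gene models lie outside the axes.

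The separation between groups was wide in liver and narrow in brain. Over all gene models tested, 40.1% had 3 Tol values below the 3 Intol values in liver and 15.0% had 3 Tol values above them in brain, while the rule required both of all 98 members. The lowest Intol liver value exceeded the highest Tol liver value by a median of 59.9%, and by under 10% for 2 members. In brain the lowest Tol value exceeded the highest Intol value by a median of 10.2%, and by under 10% for 49 members. Nothing is read from these values of the members, because the rule used the same contrasts.

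How often both conditions met in one gene model was close to the background. The liver condition was met by 25.5% of the 8464 gene models and the brain condition by 4.78%. Among the 405 gene models that met the brain condition, 24.4% also met the liver condition, and among the 2162 that met the liver condition, 4.58% also met the brain condition. Thus a gene model with the brain condition met the liver condition about as often as any other. After median-ratio scaling, which sets the typical gene model equal between libraries of a tissue, 3.28% of gene models met the brain condition, and the liver condition was met by 13.4% of them and by 14.6% of all. Without Intol brain replicate 3 the brain condition was met by 10.2%, and the liver condition by 28.6% of them and 25.5% of all. With the limits turned round in brain, 75 gene models were lower in Tol in both tissues, 3.47% of those with the liver condition, where 3.57% of all gene models were that much lower in brain. Of 519 gene models at least 0.5 higher in Tol liver with separate groups, 17, or 3.28%, were lower in brain and 31, or 5.97%, were higher there.

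The largest liver difference belonged to Trachinotus_GLEAN_10002431. Its liver values were 3.11, 3.22 and 8.29 in Tol against 32.21, 24.29 and 36.34 in Intol, a difference of -2.53 ± 0.32 (SE). Each Intol liver lay well above each Tol liver, and the highest Tol value was that of replicate 3. In brain it was near the filter, at 1.44, 1.37 and 1.12 in Tol against 0.77, 1.05 and 0.70 in Intol, a difference of 0.33 ± 0.13 (SE). Tol replicate 3 and Intol replicate 2 almost met there. Every SE given in this report is limma's moderated SE. Beside a Tol minus Intol difference it describes spread only and lends no support, because the same values chose the members.

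Trachinotus_GLEAN_10011254 was next in liver, at 2.77, 5.28 and 4.10 in Tol against 12.94, 23.94 and 27.79 in Intol, a difference of -2.12 ± 0.30 (SE). The Intol livers spread widely, with replicate 1 about midway between the Tol values and the other Intol values. Its brain values were 6.30, 6.43 and 5.66 in Tol against 5.02, 4.43 and 5.33 in Intol, a difference of 0.27 ± 0.09 (SE). After median-ratio scaling this brain difference was 0.23, below the limit of 0.25.

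The largest brain difference was that of Trachinotus_GLEAN_10013187, at 2.36, 2.16 and 2.01 in Tol against 0.77, 0.67 and 1.24 in Intol brain, a difference of 0.76 ± 0.14 (SE). Its Tol brain mean was 2.44 times the Intol mean, and all 3 Tol values stood clear of the highest Intol value, in replicate 3. It was far more abundant in liver, at 24.09, 25.80 and 25.75 in Tol against 50.18, 41.44 and 51.20 in Intol, a difference of -0.89 ± 0.16 (SE). Its Tol livers were almost alike, and the Intol livers lay higher, with a ratio of means of 1.89.

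Trachinotus_GLEAN_10013383 followed in brain, at 3.16, 2.81 and 2.11 in Tol against 0.76, 1.62 and 1.38 in Intol, a difference of 0.72 ± 0.18 (SE). Both brain groups were spread, and that they did not overlap was required by the rule. In liver its values were 0.66, 0.80 and 0.70 in Tol against 1.57, 1.61 and 3.56 in Intol, a difference of -0.86 ± 0.21 (SE). Intol liver replicate 3 was more than double the other Intol livers, and without this library the liver difference was -0.59.

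When both size limits were doubled, to -1 in liver and 0.5 in brain, 3 members met them, and they are named here after their values were seen. Trachinotus_GLEAN_10005300 was at 1.89, 2.41 and 3.08 in Tol against 8.81, 7.61 and 9.73 in Intol liver, and at 2.23, 2.34 and 1.72 in Tol against 1.21, 1.46 and 0.83 in Intol brain. Its differences were -1.50 ± 0.17 and 0.52 ± 0.15 (SE). In Intol fish its mean was 8.72 in liver and 1.17 in brain, and in Tol fish 2.46 and 2.10, as deposited. The gap between tissues depends on the scaling, with a liver minus brain difference over all 12 libraries of 1.16 as deposited and from 0.66 to 2.69 under the other scalings.

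Trachinotus_GLEAN_10015322 was at 0.71, 0.78 and 0.68 in Tol against 3.6, 2.79 and 4.33 in Intol liver, a difference of -1.39 ± 0.14 (SE). Its brain values were 9.18, 9.56 and 14.06 in Tol against 7.39, 7.12 and 7.26 in Intol, a difference of 0.51 ± 0.14 (SE). Tol brain replicate 3 stood above the other libraries, while the Intol brains were nearly equal. Trachinotus_GLEAN_10016513 was at 0.45, 1.03 and 1.05 in Tol against 3.43, 2.79 and 3.33 in Intol liver, and at 4.35, 3.34 and 3.32 in Tol against 1.97, 1.64 and 2.23 in Intol brain. Its differences were -1.20 ± 0.16 and 0.66 ± 0.13 (SE), and as deposited its mean was highest in Tol brain. Its order between tissues depends on the scaling, since the liver minus brain difference was -0.42 as deposited but 0.82 after median-ratio scaling and 1.30 after quantile normalization.

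Only 1 pair of members had consecutive numbers, Trachinotus_GLEAN_10005300 and Trachinotus_GLEAN_10005301, also singled out after the values were seen. The second had 5.69, 7.12 and 7.34 in Tol against 19.38, 15.83 and 21.49 in Intol liver, a difference of -1.36 ± 0.17 (SE). Its brain values were 4.10, 3.56 and 3.36 in Tol against 2.91, 1.94 and 2.51 in Intol, a difference of 0.44 ± 0.13 (SE). Both gene models of the pair had their lowest Tol liver value in replicate 1 and their highest Intol liver value in replicate 3. Of the 98 members, 55 had their lowest Tol liver value in replicate 1 and 67 their highest Intol liver value in replicate 3. Nothing is read from the shared pattern of the pair. Whether reads were shared between them was not analysed here, since their sequences and positions were not given.

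**Figure D2:**
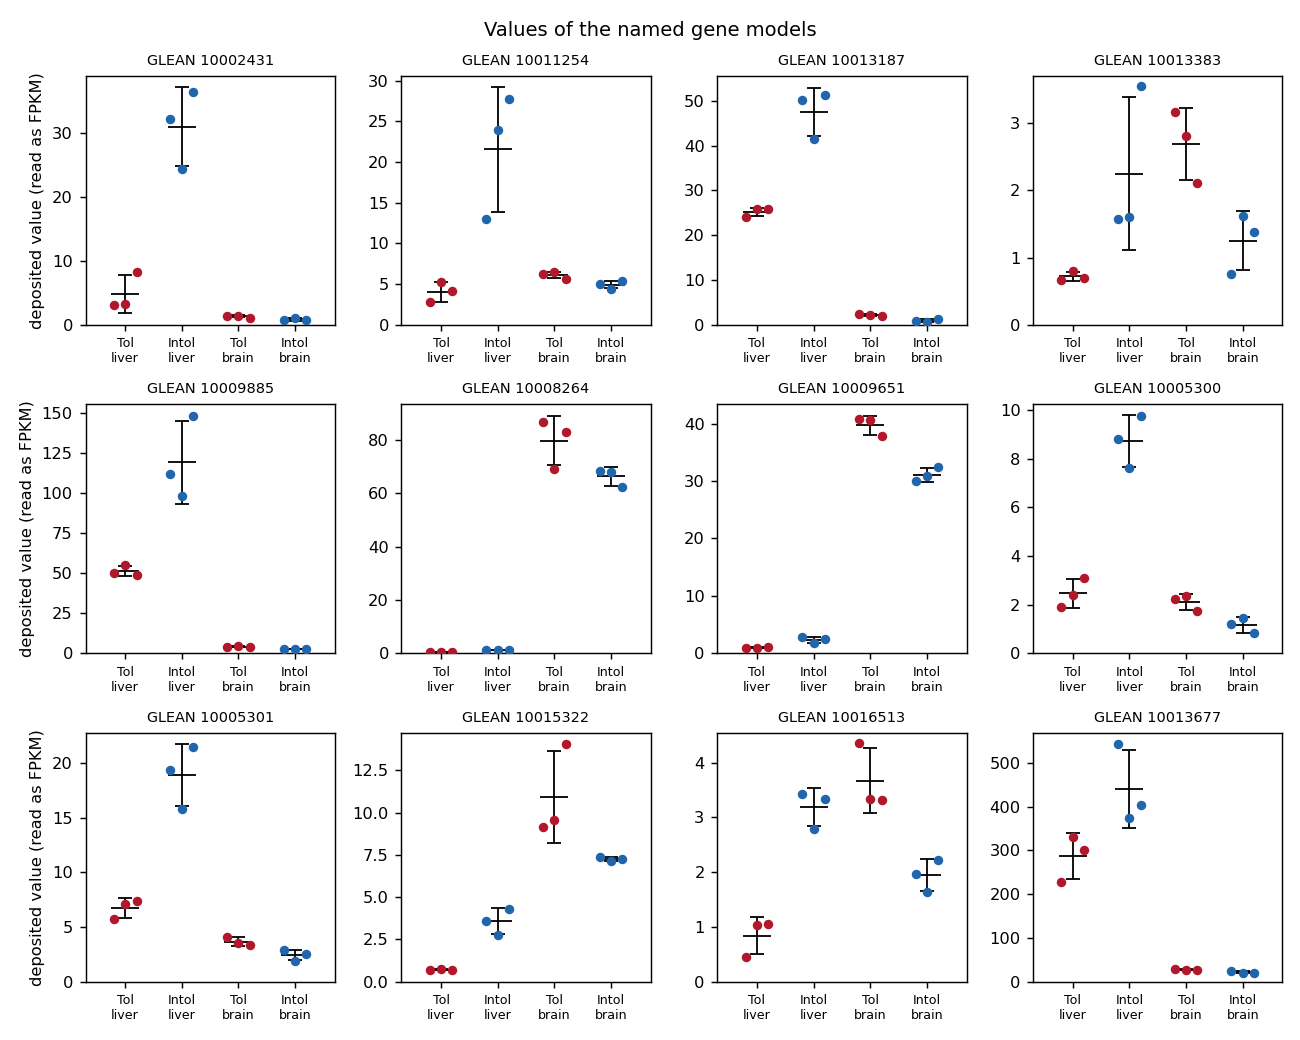
Deposited values of the 12 gene models named here in the 4 groups (red points Tol libraries, blue points Intol libraries, horizontal marks the mean and bars the SD, n = 3), each panel with its own axis from 0. In every panel the Tol liver points lie below the Intol liver points and the Tol brain points above the Intol brain points, as the rule required. The ratio of the lowest Tol to the highest Intol brain value ran from 1.01 (Trachinotus_GLEAN_10008264) to 1.62 (Trachinotus_GLEAN_10013187).

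Across the 98 members, libraries of a group differed in how often they were highest or lowest. Intol liver replicate 3 was the highest Intol liver for 67 members and replicate 2 the lowest for 66. The median deviation of the members from their group mean was 0.18 in Intol liver replicate 3 and -0.15 in replicate 2, against 0.03 and -0.05 over the 8464 gene models. In Tol liver, replicate 2 was highest for 54 members and replicate 1 lowest for 55. In brain the deviations were smaller, from -0.05 to 0.05. Intol brain replicate 3 was the highest Intol brain, and so the nearest to the Tol brains, for 45 members. Its median deviation was 0.05 over the members and 0.04 over the 8464 gene models. For Tol liver these values were 0.07 and 0.05 in replicate 2, and -0.08 and 0.01 in replicate 1. How often each library was highest or lowest over all gene models was not computed, so nothing is read from the counts.

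Without Intol brain replicate 3, 243 gene models met the rule, among them 90 of the 98. Without another library the number ranged from 67, when Intol liver replicate 3 was left out, to 147, when Tol brain replicate 2 was left out. A group of 2 libraries separates from a group of 3 more easily, and the 25 members that reached the filter only through Intol livers drop out by construction without an Intol liver library.

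**Figure D3:**
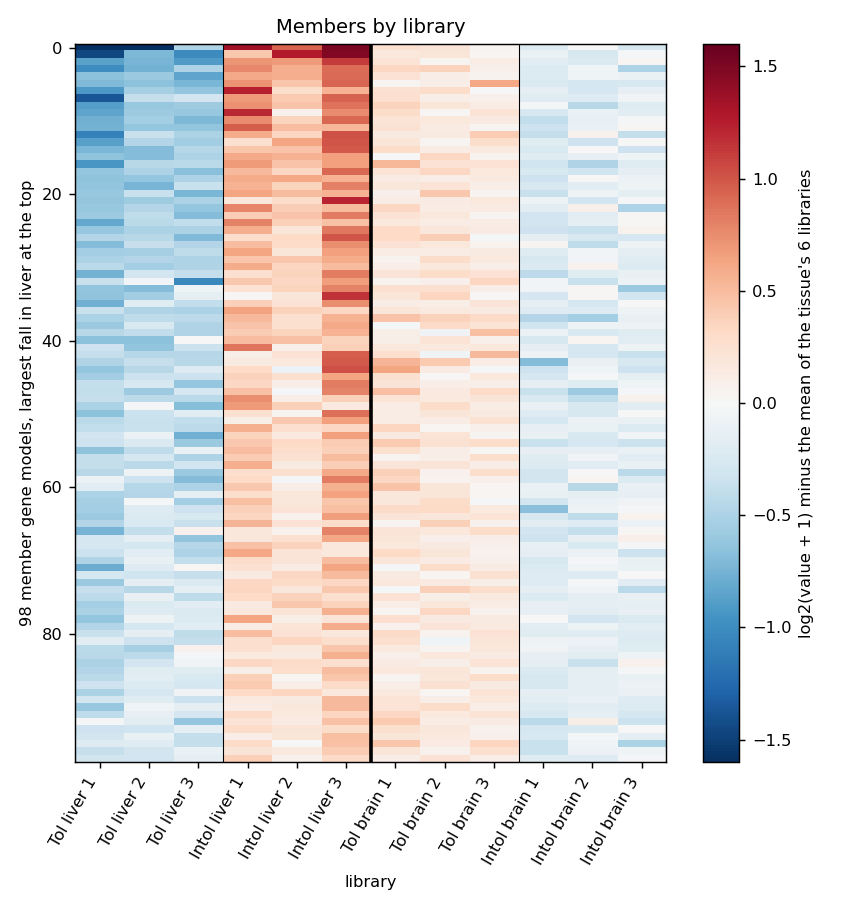
The 98 members (rows, largest liver difference at the top) in the 12 libraries (columns), coloured by log2(value + 1) minus the mean of the same tissue's 6 libraries. Liver columns carry stronger colour than brain columns, and Intol liver 3 is the darkest red for 67 members.

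The scaling of libraries decided membership for most members. After median-ratio scaling, the median liver difference over all gene models moved from -0.20 to 0.03, and in brain from 0.04 to 0.00387. The members' median was then -0.60 in liver and 0.30 in brain, and all 98 kept the sign of both differences. That the signs stayed was largely built in, because the rule's limits were larger than these shifts of the typical gene model. The rule was still met by 36 of the 98, and by 1 other gene model. Of the 62 that no longer met it, 22 missed only the liver conditions, 20 only the brain conditions, 19 both and 1 the filter. The liver difference of 34 of them and the brain difference of 28 had fallen short of the limit. The 36 members had a median liver difference of -1.03 and brain difference of 0.38 in the values as deposited, against -0.71 and 0.30 for the 62. Larger differences among the 36 were largely built in, because all members shifted towards 0 and the same limits were applied again. Wholly separate groups, which the rule required of all 98 as deposited, remained for 82 members in liver and 83 in brain. Nothing is read from these counts, since the share over all gene models after scaling was not computed.

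**Figure D4:**
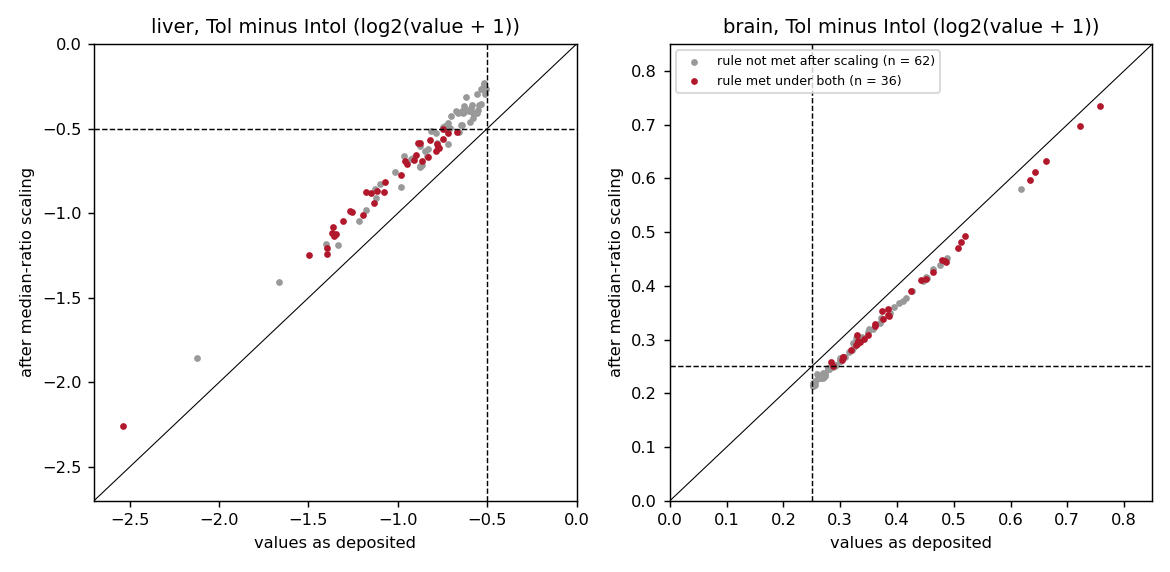
Tol minus Intol difference of the 98 members in liver (left) and brain (right), as deposited (horizontal) and after median-ratio scaling within the tissue (vertical), with equality as a solid line and the rule's limits dashed. All points shift towards 0, and the 36 members that meet the rule under both are red.

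Some members lay next to a limit. Just inside the liver limit were members at -0.508 and -0.511, and just outside it gene models at -0.499 and -0.491 that met every other condition. The member at -0.508 had 2.69, 2.67 and 3.05 in Tol against 4.91, 3.77 and 4.59 in Intol liver, and the gene model at -0.499 had 12.28, 13.23 and 9.67 against 18.42, 17.76 and 14.62. Just inside the brain limit were 2 members that both round to 0.25, at 0.2513 and 0.2517, and just outside it gene models at 0.2498 and 0.2492. In all, 38 gene models met every condition but the size in liver and 162 every condition but the size in brain. These counts cover gene models at any distance short of the limit.

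The mean level in liver against brain was not used by the rule as a contrast and was tested over the 12 libraries. It is not wholly free of the rule, since the filter, the upper limits on means and the pseudocount of 1, which makes the limits harder to reach at low levels, all bear on level. Separate groups in each tissue, which the rule also required, favour gene models with little spread within groups. This spread sets the SE and p-values of the tissue test, so the members' calls and p-values are favoured by selection too. With values as deposited, 18 members were higher in liver and 71 higher in brain at an adjusted p under 0.05 (limma). The background was 13.2% and 82.1% of all 14817 gene models tested, and 15.8% and 76.8% of the 8464 that, like the members, passed the filter in both tissues. This split depended on the scaling. After median-ratio scaling over the 12 libraries it was 58 against 21 members, with 36.4% and 51.0% of all gene models and 54.2% and 29.7% of the 8464. After quantile normalization it was 69 against 18, with 43.4% and 43.8% of all and 56.3% and 30.2% of the 8464. With equal sums it was 11 against 82, with 9.53% and 87.0% of all and 9.89% and 85.1% of the 8464. Under all 4 scalings 11 members were higher in liver and 17 higher in brain. For the other 70 a direction between tissues is not given. The share of all gene models called alike under all 4 scalings was not computed, so nothing is read from these counts.

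The members' median liver minus brain difference was -0.84, against -1.23 over the 8464 gene models tested in both tissues. It was -1.10 for the 2063 gene models that met only the liver condition and -1.03 for the 306 that met only the brain condition. The members' median lay nearer to liver than that of the 8464 under the other scalings too, at 0.53 against 0.34, 0.85 against 0.37 and -1.44 against -1.82 for median-ratio, quantile and equal-sum scaling. The members were also lower in both tissues, with median levels on the log2(value + 1) scale of 1.92 against 2.30 in liver and 3.00 against 3.64 in brain. No test was made of these differences between lists.

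Trachinotus_GLEAN_10009885 was the member highest in liver over brain. Its liver values were 50.25, 55.03 and 48.63 in Tol against 111.55, 97.73 and 147.86 in Intol, and its brain values 3.94, 4.36 and 3.79 in Tol against 2.60, 2.40 and 2.82 in Intol. The tissues differed by 4.21 ± 0.09 (SE; adjusted p = 5.12e-13, limma), and from 3.58 to 5.82 under the other scalings. Trachinotus_GLEAN_10013187, named above for its brain difference, was next at 3.87 ± 0.08 (SE), and from 3.32 to 5.28 under the other scalings.

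The member most abundant in liver was Trachinotus_GLEAN_10013677, named after its values were seen, at 228.01, 330.05 and 300.58 in Tol against 542.36, 373.68 and 403.74 in Intol. The groups came close there, with Tol replicate 2 and Intol replicate 2 only 1.13-fold apart. In brain it was at 29.52, 26.89 and 26.90 in Tol against 24.11, 19.38 and 20.46 in Intol. After median-ratio scaling its liver difference was -0.31, short of the limit.

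At the other end, Trachinotus_GLEAN_10008264 was almost restricted to brain, at 86.65, 69.15 and 83.13 in Tol against 68.49, 67.96 and 62.34 in Intol. Tol replicate 2 exceeded Intol replicate 1 by a factor of 1.01 only. In liver it stood at 0.57, 0.40 and 0.35 in Tol against 1.12, 1.24 and 1.15 in Intol, values close to the filter. The tissues differed by -5.38 ± 0.07 (SE; adjusted p = 3.55e-15, limma), and from -5.90 to -3.94 under the other scalings. After median-ratio scaling its Tol minus Intol differences were -0.46 in liver and 0.21 in brain, both short of the limits.

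Trachinotus_GLEAN_10009651 was second, at 40.73, 40.55 and 37.76 in Tol against 30.01, 30.83 and 32.43 in Intol brain, against 0.99, 0.92 and 1.1 in Tol against 2.89, 1.86 and 2.42 in Intol liver. The tissues differed by -3.80 ± 0.07 (SE; adjusted p = 1.28e-13, limma), and from -4.37 to -2.14 under the other scalings. Here both groups were tight in brain, and both differences stayed past the limits after median-ratio scaling, at -0.56 and 0.30.

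**Figure D5:**
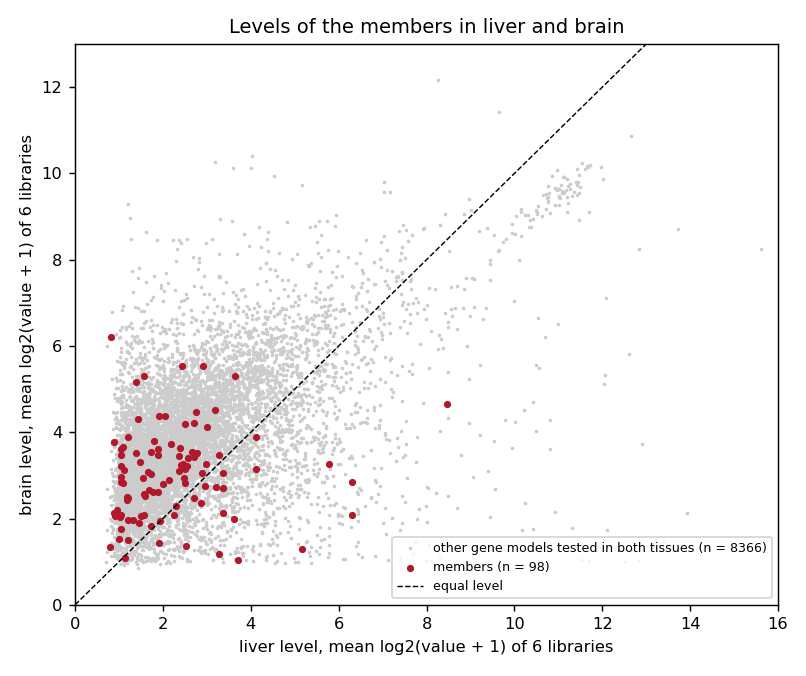
Mean log2(value + 1) of the deposited values over 6 libraries in liver (horizontal) and brain (vertical), members in red over the other 8366 gene models tested in both tissues, with equal level dashed. Most members lie at a liver level below 4 and above the dashed line, and a few reach past 5 in liver with less than 5 in brain.

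The differences are given here by tissue balance, as a description of values that the rule cut off at -0.5 and 0.25. The 10 members with a liver level at least 1 above brain on the log2 scale had a median liver difference of -0.92 and brain difference of 0.36. The 44 members with a brain level at least 1 above liver had medians of -0.78 and 0.32, and the 44 between them -0.87 and 0.33. Across the 98 members, which share all 12 libraries and were truncated by the rule, the liver and brain differences had r = -0.032 and rho = -0.10. Nothing is read from these coefficients, because the rule cut off both differences.

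Because the values of Tol fish were lower in liver and higher in brain, the tissue balance of each member moved towards brain in Tol by selection. The median liver minus brain difference was -0.27 in Intol fish and -1.58 in Tol fish. For 25 members the mean was higher in liver in Intol fish and higher in brain in Tol fish. For 12 it was higher in liver and for 61 higher in brain in both groups. These counts use the values as deposited and shift with the scaling between tissues. The medians and shares over all gene models in each group were not computed, so nothing is read from those of the members.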

How the data were processed

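Liver and brain mRNA of Tol and Intol fish was sequenced in 125-bp paired reads from TruSeq libraries, per the labels' protocols, which name Trinity for assembly. For aligner, counting tool, build and normalization the entry is not given in the sources used here. The deposited values, with at most 2 decimals, were read as FPKM because they are not whole and their sums differ (360680 to 622240). Steps of whole reads were looked for in values from 0.05 to 0.5, but on the log2 ratio of unequal values no 0.02-wide bin held more than 3.82% of gene models, so depth is unknown. The file of Intol brain replicate 2 held 1 further block, equal to Intol brain replicate 1 in all 18490 values, which was not used.

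Members were found on log2(value + 1). Fits used limma 3.58.1 in R 4.3.3 with trend and robust options, group means as terms, gene models at 1 or more in at least 3 libraries, and Benjamini-Hochberg adjustment over all of them. On simulated data with 100 gene models changed by 1 and 100 by 2, the tissue fit (14817 gene models) recovered 96% and 100% with 5.31% false calls, the liver fit (9109) 77% and 96% with 5.46%, and the brain fit (14146) 87% and 98% with 1.6%. The simulation held no change below 1, so its rates do not cover the members' brain differences, which ran from 0.25 to 0.76. It also held no general shift between groups. Only 200 gene models were changed in it, far fewer than were called in the tissue and liver fits of the real data. Its rates therefore need not carry over to those fits. Tables and figures used Python 3.11.15, NumPy 2.4.6, pandas 2.3.3 and matplotlib 3.10.9. The members, tests and alternatives were chosen with earlier results of these data known. Named are the 2 members with the largest liver difference, the 2 with the largest brain difference and the 2 highest in each tissue over the other among those called; others are said to be singled out later. Alternatives were other scalings, pseudocounts, filters and limits, limma options, a replicate block and each library left out.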

Additional observations from a re-analysis of the deposited data

Results flagged for a closer look

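All 98 members had every Tol library below every Intol library in liver and above every Intol library in brain. This opposite direction is what the rule selected, so it is not independent evidence, and the difference between the tissues was not tested for them.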

How the results depend on the processing

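Among the alternatives run, the median liver and brain differences of the 98 members kept their sign, which the choice of members by these differences largely built in. The number of gene models meeting the rule was 98, and became 37 with median-ratio scaling, 40 with quantile normalization, 151 and 13 with pseudocounts of 0.1 and 5, 24 with a mean of at least 5, and 3 with doubled limits. With each library left out it ranged from 67 to 243. The median liver difference of -0.82 became -0.60, -0.60, -1.16 and -0.42 under median-ratio scaling, quantile normalization and pseudocounts of 0.1 and 5, and the brain difference of 0.33 became 0.39 and 0.23 under these pseudocounts. Members higher in liver numbered 18 and became 58 with median-ratio scaling, 11 with equal sums, 69 with quantile normalization and 10 at an absolute difference of at least 1. Members higher in brain numbered 71 and became 21, 82, 18 and 44. Of the 8464 gene models tested in both tissues, 9.26% had a liver level at least 1 above brain, and 57.8% a brain level at least 1 above liver. With each library left out, members higher in liver were 17 to 18 and members higher in brain 70 to 75. No share over all gene models was computed for these fits, so nothing is read from the counts. Between tissues Trachinotus_GLEAN_10013383 had no called direction as deposited (-0.30, adjusted p = 0.0787, limma), and was at 0.81 (median-ratio) and 1.38 (quantile). Trachinotus_GLEAN_10016513 went from -0.42 to 0.82 and 1.30, so both changed sign. The median over the 8464 gene models moved from -1.23 to 0.34 and 0.37 under the same scalings, and so changed sign too. The cause was not tested.

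Over all gene models, liver calls of 682 higher and 2699 lower became 1513 and 1551 with median-ratio scaling, and 372 to 669 and 1746 to 2249 with each library left out. Brain calls of 1 higher and 2 lower (limma) became 4 and 4 with median-ratio scaling, and 0 to 14 and 0 to 11 with each library left out, where 796 to 2006 and 500 to 1068 had an unadjusted p under 0.05, against 1542 and 863 with all libraries. With the replicate block, brain calls were 3 higher and 12 lower, and liver calls 786 and 2727. Members higher in liver and brain were then 12 and 63, and no share over all gene models was computed. The blocked tissue fit had no term for a Tol minus Intol difference that varies between tissues. The rule selected such a difference, so it entered the members' spread in this fit. Whether that lowered their calls more than those of other gene models was not tested. Deviations of same-numbered libraries correlated at -0.085 to 0.22 between Tol and Intol of a tissue, and those of other numbers at -0.36 to 0.34. Between liver and brain of a status same-numbered libraries correlated at -0.0071 to 0.15, and other numbers were not compared. These ranges do not settle whether the numbers are pairs. The labels do not say so either, and the main fits did not pair them. Depth is unknown, which limits what the low values show.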

Other observations

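Gene models numbered next to a member were read after the data were seen, although the files do not say whether numbers follow position. Of 184 such neighbours that are not members, 96 passed the filter in both tissues. Their median liver difference was -0.31, against -0.20 for all 8464, and 32 of them, or 33.3%, met the liver condition, against 25.5%. In brain their median was 0.04, as over all gene models, and 4 of them, or 4.17%, met the brain condition, against 4.78%. No test was made of these shares.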
